A study of Zea mays with 8 samples.

Results

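Plasma membrane proton pump genes of maize (Zea mays), called mha, were read by 3 probe sets of 2 genes, among 17621 probe sets and 1108 named genes of the array. They were matched by name, as every probe set whose gene symbol or synonym was mha followed by a number. Of the 17621 probe sets, 16168 had no gene paired with them, so probe sets of other pump genes may have gone unmatched. The family itself was chosen with earlier results of these data known. mha1 (LOC542303, also called pma1, on chromosome 2) was read by Zm.13934.1.S1_at and Zm.13934.1.A1_at, and mha4 (LOC542052, on chromosome 10) by Zm.14838.1.A1_at. mha2 (LOC542048, also on chromosome 2), which is known for its induction by auxin in maize coleoptiles, had no probe set paired with it in the annotation and was not analysed here.

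Plasma membrane proton pumps are P-type ATPases that use ATP to move protons out of the cell. The resulting gradient of pH and voltage drives the uptake of phosphate, nitrate, sucrose and potassium through carriers and channels, and the acidified wall is loosened by expansins during growth. The pumps are held inactive by their own C-terminal tail until that tail is phosphorylated and bound by 14-3-3 proteins, so their activity is set after translation as well as by transcript level.

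Wild-type seedlings and their DpDf siblings, all of the inbred B73, were each sampled as 4 pools with 12 plants per pool. All above-ground tissue, meristems included, was taken 11 days after planting. DpDf (duplicate-deficient) plants come from the T5-6b translocation: they carry both normal copies of chromosome 5, 1 normal chromosome 6 and 1 exchanged chromosome, which brings an extra copy of roughly 90% of the chromosome 5 short arm and lacks the end of the short arm of chromosome 6. Wild-type and DpDf pools of the same replicate were siblings from 1 selfed DpDf plant's seed, with seed source 49647-3self for replicates 1 and 3 and 49646-1self for replicates 2 and 4. Neither mha1 nor mha4 lies on chromosome 5 or 6. Since whole shoots were pooled, fewer cells that express a gene and less RNA per cell cannot be told apart.

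Values are probe set intensities in arbitrary linear units, and differences are given on the log2 scale as DpDf minus wild type, each with its standard error (SE) from a limma fit. Array medians ran from 135.6 to 142.3. Of 51 tested genes on the duplicated arm, 48 had a higher mean in DpDf, where 5284 of all 12335 tested probe sets had one. The median difference was 0.47 for those 51 genes and -0.023 over all tested probe sets. All 9 leaf marker genes were well above the low-value limit of 27.0 (1995 to 17406), and 8 of 10 endosperm marker genes were below it, the others being gz27 at 123 and bt2 at 161. The meristem gene kn1 read 205.

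mha1 transcript, as read by the S1 probe set, was lower in DpDf seedlings than in their wild-type siblings. Wild-type intensities were 121.5, 79.21, 113.9 and 89.04 in replicates 1 to 4, and DpDf intensities were 58.75, 59.94, 74.4 and 59.87. All of these lay above the low-value limit of 27.0 but below the array medians (135.6 to 142.3). No detection call was at hand, so the part of background signal in them was not tested. Every DpDf pool lay below every wild-type pool, a pattern that 4.8% of all tested probe sets showed in that direction. The mean log2 values were 6.64 ± 0.29 (SD, n = 4) in wild type and 5.98 ± 0.16 (SD, n = 4) in DpDf.

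Within the replicate pairs, the wild-type intensity was 2.07, 1.32, 1.53 and 1.49 times the DpDf intensity in replicates 1 to 4. DpDf was thus the lower in 4 of 4 pairs, as it was for 18.1% of tested probe sets. The pair of replicate 1 held both the brightest wild-type pool and the dimmest DpDf pool, and the pair of replicate 2 held the dimmest wild-type pool.

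**Figure D1:**
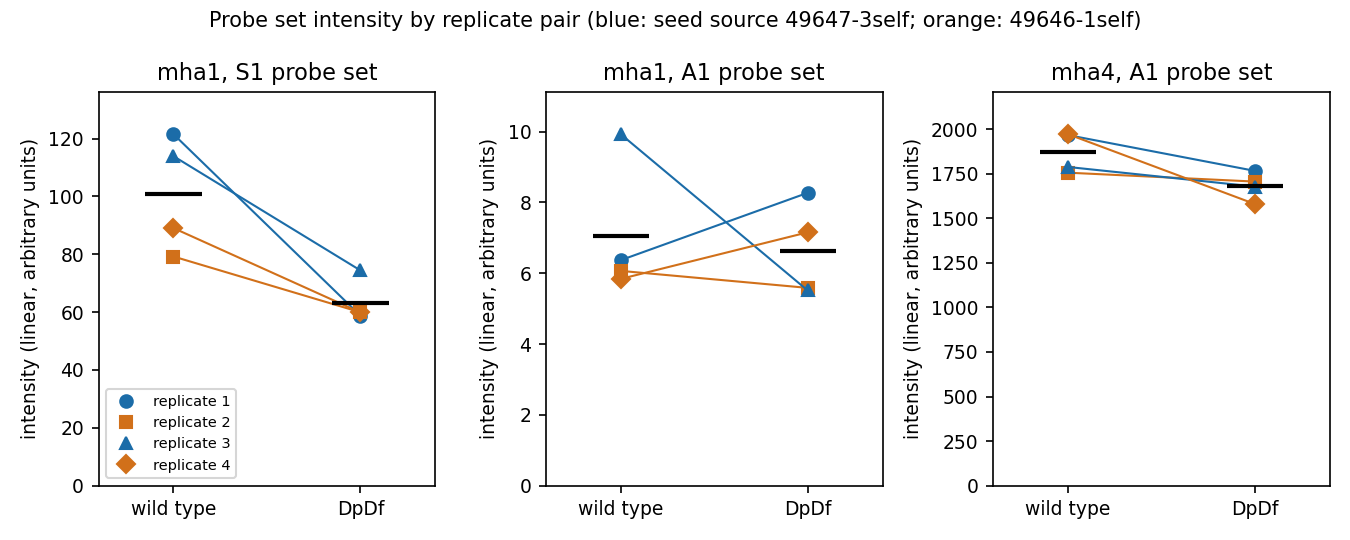
Linear intensity of the 3 mha probe sets in wild-type and DpDf pools (vertical axes from 0); lines join pools of the same replicate, colours mark the seed source and black bars are group means of 4 pools. For the S1 probe set of mha1 all 4 lines fall and the groups do not overlap, for mha4 all 4 lines fall with overlap between groups, and for the A1 probe set of mha1 lines run in both directions.

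The genotype difference of mha1 was -0.66 (SE 0.15, 95% interval -0.99 to -0.33, limma adjusted p = 0.0315). On the linear scale, wild type was 1.58-fold higher (95% interval 1.26 to 1.98). Of the 12335 probe sets tested, 0.843% passed the threshold of 0.05 in this direction, 104 in number, and mha1 ranked 31st among them by size of fall. The median of those 104 was -0.48. With replicate pairs kept together the limma adjusted p of mha1 was 0.00715 at the same difference, where 3.35% of probe sets were called lower. An exact permutation test over the 70 assignments of the 8 pools gave p = 0.0286, the smallest it can give. Exact sign flips of the 4 pairs, 16 in all, gave p = 0.125, again the smallest they allow.

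Whether mha1 passed depended on single pools. Leaving out 1 pool at a time gave differences from -0.77 to -0.56 and limma adjusted p from 0.0147 to 0.0940. The threshold was still passed without wild-type replicate 2 (adjusted p = 0.0147 in limma) or DpDf replicate 3 (adjusted p = 0.0357), and was missed without any of the other 6 pools.

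**Figure D2:**
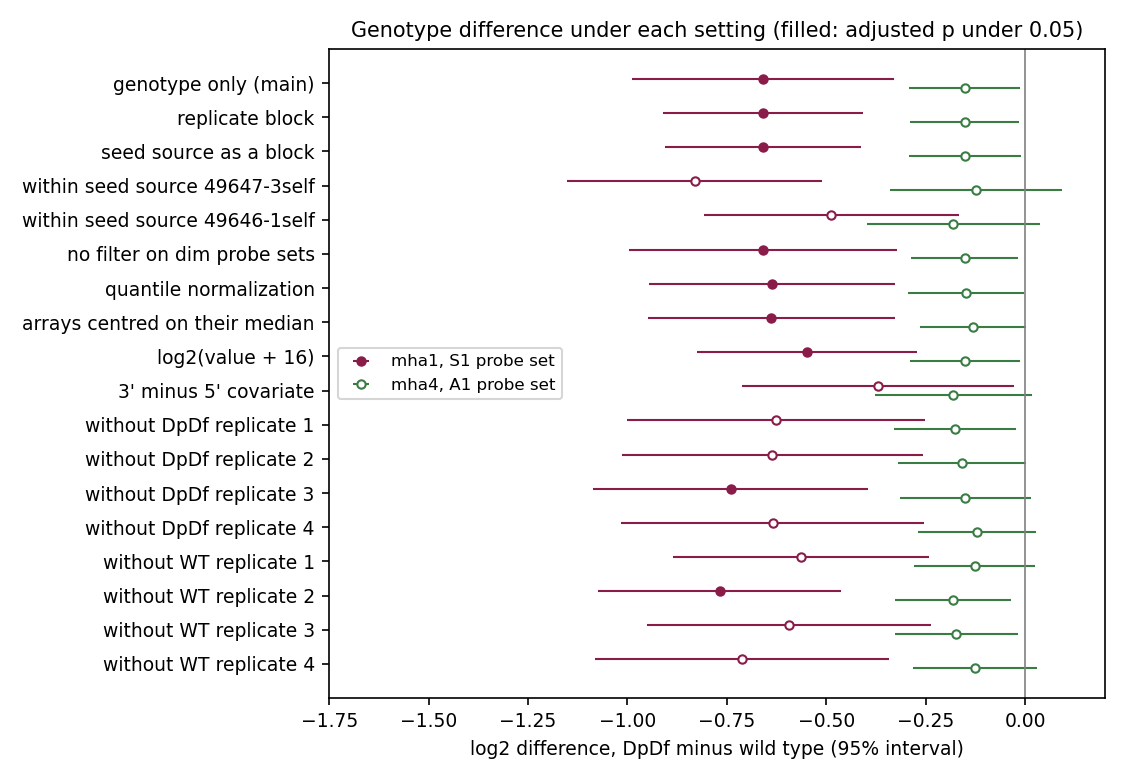
Log2 difference, DpDf minus wild type, for the S1 probe set of mha1 and for mha4 under each setting (rows), with 95% intervals; filled points passed the adjusted p threshold of 0.05. All intervals of mha1 lie below 0, and its estimate is nearest 0, at -0.37, with the RNA measure as a covariate; no point of mha4 is filled.

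A measure of RNA quality moved with mha1. In preparations from partly degraded RNA, the 3' end of a transcript is read more strongly than its 5' end. The 3' minus 5' log2 difference, averaged over 5 control transcripts, was 1.63 ± 0.15 (SD, n = 4) in wild type and 1.92 ± 0.21 (SD, n = 4) in DpDf, and it was higher in DpDf in 4 of 4 pairs. In wild-type replicates 1 to 4 it was 1.51, 1.80, 1.51 and 1.71. In DpDf replicates 1 to 4 it was 2.20, 1.93, 1.72 and 1.82.

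Ordered by that measure, mha1 ran from its brightest pool to its dimmest with few exchanges. In 26 of the 28 pairs that 8 pools can form, the pool with the larger 3' minus 5' value had the lower mha1 intensity. This held in 6 of 6 pairs among wild-type pools and in 5 of 6 among DpDf pools. The wild-type order followed the seed sources, and replicates 1 and 3 nearly tied in the measure (1.51 in both). In DpDf only replicate 3 stood apart, at 74.4. Replicates 4, 2 and 1 read nearly the same, 59.87, 59.94 and 58.75, at values of the measure of 1.82, 1.93 and 2.20. Over all 8 pools, 0.965% of tested probe sets had at least 26 pairs in that order. For mha4 the count was 19 of 28, with 4 of 6 among wild-type pools and 1 of 6 among DpDf pools.

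With the 3' minus 5' measure as a covariate, the genotype difference of mha1 was -0.37 (SE 0.15, 95% interval -0.71 to -0.028) and no longer passed (limma adjusted p = 0.404), in a fit that called 2.67% of all tested probe sets. The residual SD of mha1 went from 0.24 to 0.16 with that term. At nearly equal values of the measure, DpDf replicate 3 (1.72) read 74.4 and wild-type replicate 4 (1.71) read 89.04, and DpDf replicate 4 (1.82) read 59.87 where wild-type replicate 2 (1.80) read 79.21. The first comparison crosses seed sources (49647-3self and 49646-1self), and the second lies within 49646-1self. Both join pools of different replicates. The measure differs between the genotypes, so the parts that genotype and RNA quality have in the mha1 difference cannot be told apart with 8 pools.

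**Figure D3:**
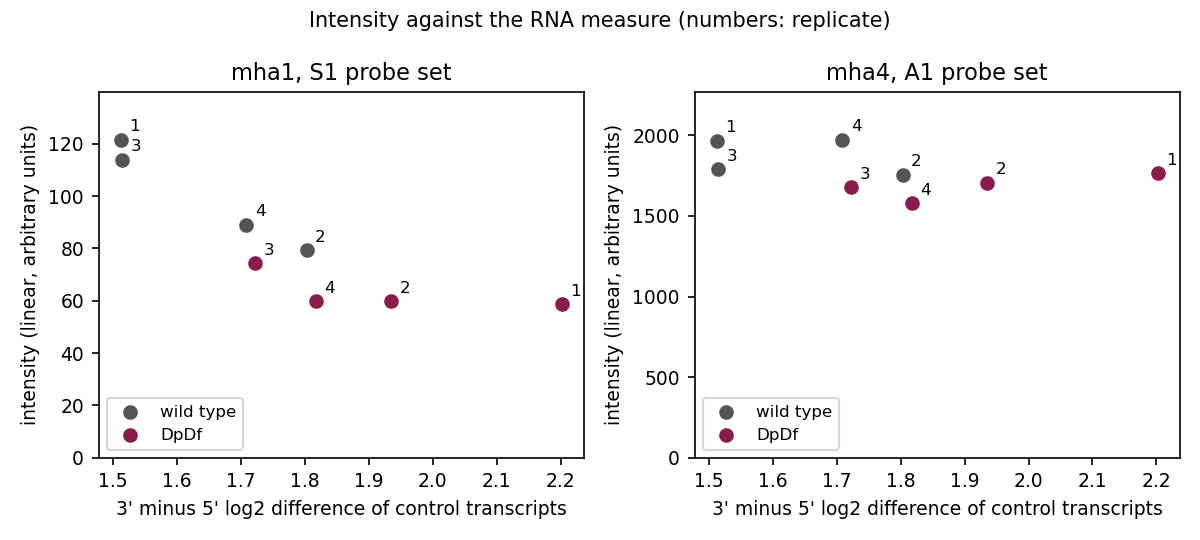
Linear intensity of mha1 (S1 probe set) and of mha4 in each pool against the 3' minus 5' log2 difference of 5 control transcripts; numbers are replicates. mha1 goes from 121.5 at 1.51 to 59.87 at 1.82, then stays level, at 59.94 for 1.93 and 58.75 for 2.20. mha4 stays between 1580 and 1972.

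Wild-type mha1 intensities stood apart by seed source, although the difference did not pass after adjustment. The 2 wild-type pools of source 49647-3self read 121.5 and 113.9, against 79.21 and 89.04 for source 49646-1self. In DpDf, source 49647-3self read 58.75 and 74.4, and source 49646-1self read 59.94 and 59.87. The RNA measure split the wild-type pools the same way, at 1.51 in both pools of 49647-3self and at 1.80 and 1.71 in those of 49646-1self, and its part in the seed source difference was not tested. The wild-type difference, 49646-1self minus 49647-3self, was -0.49 (SE 0.14, unadjusted p = 0.00854 and adjusted p = 0.459 in limma), and the DpDf difference was -0.14 (SE 0.14, limma adjusted p = 0.788). Over all tested probe sets the wild-type comparison called 0 after adjustment, with 1279 at an unadjusted p under 0.05, or 10.4%.

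The genotype difference of mha1 was -0.83 (SE 0.14, limma adjusted p = 0.0530) within source 49647-3self and -0.49 (SE 0.14, limma adjusted p = 0.175) within source 49646-1self. These values differed by 0.34 (SE 0.20, 95% interval -0.11 to 0.80), which did not pass (unadjusted p = 0.118, limma adjusted p = 1.00). The largest gap in the RNA measure between paired pools was also in 49647-3self, in replicate 1 (2.20 against 1.51). That interaction test called 0 of 12335 probe sets, with 247 at an unadjusted p under 0.05. With seed source as a block, the genotype difference was -0.66 (limma adjusted p = 0.00755).

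The second probe set of mha1, A1, gave values near the bottom of the scale. Wild-type intensities were 6.37, 6.07, 9.93 and 5.84, and DpDf intensities were 8.27, 5.59, 5.51 and 7.15, all under the limit of 27.0. The groups overlapped, and DpDf was lower in replicates 2 and 3 and higher in replicates 1 and 4. Tested without the filter on low values, the difference was -0.074 (SE 0.19, 95% interval -0.49 to 0.35, limma adjusted p = 0.905). Both probe sets are annotated to the same gene and share the number 13934.1 in their names. The sources used here do not give the strand that each reads, so the A1 values neither repeat nor contradict those of S1. Part of a proton pump gene is known to have been carried into the maize retroelement Bs1, and whether the S1 probes also bind that copy was not tested.

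mha4 was read at higher intensities, which cannot be set against those of mha1 because probe sets differ in binding. Wild-type intensities were 1967, 1756, 1788 and 1972, and DpDf intensities were 1766, 1706, 1678 and 1580. DpDf was the lower in 4 of 4 pairs, by 1.11, 1.03, 1.07 and 1.25-fold in replicates 1 to 4, but the groups overlapped, as DpDf replicate 1 lay above wild-type replicate 2. The mean log2 values were 10.87 ± 0.089 (SD, n = 4) and 10.72 ± 0.067 (SD, n = 4).

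The genotype difference of mha4 was -0.15 (SE 0.062, 95% interval -0.29 to -0.013), with an unadjusted p of 0.0351 in limma that did not pass after adjustment over all probe sets (adjusted p = 0.245; blocked by replicate, 0.153). A difference larger than 0.29 in either direction lies outside that interval. With the RNA measure as a covariate the value was -0.18 (SE 0.087, limma adjusted p = 0.564). Within the seed sources it was -0.12 for 49647-3self and -0.18 for 49646-1self. The seed sources differed by -0.011 in wild type and by -0.068 in DpDf (SE 0.093 for both).

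Between the genotypes, mha1 differed by 0.51 more than mha4 on the log2 scale. The log2 value of mha1 minus that of mha4, taken within each pool, was -4.23 ± 0.27 (SD, n = 4) in wild type and -4.74 ± 0.18 (SD, n = 4) in DpDf, a difference of -0.51 (two-sided exact permutation p = 0.0286, the smallest that 70 assignments allow). By replicate pair the differences were -0.89, -0.36, -0.52 and -0.25, and the 16 exact sign flips of the pairs gave p = 0.125, the smallest they allow, so the paired test could not pass. The RNA measure moved with mha1. With that measure as a covariate the genotype differences were nearer to each other, at -0.37 for mha1 and -0.18 for mha4. The gap between the genes was not tested in that fit. The 2 genes are read by probe sets of different intensity, and the part of that in the difference was not tested.

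Other named genes that make or use proton gradients, or act in acid-driven growth, were read for 20 genes that passed the low-value filter. Of these, 1 was called higher and 0 lower in limma, against 4.03% and 0.843% of all tested probe sets. With the replicate block 2 were higher and 2 lower, where 10.2% of all tested probe sets passed in either direction. No probe set was named as a 14-3-3 protein by the symbol gf14.

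The vacuole has its own proton pumps. vpp1, which encodes a proton-pumping pyrophosphatase, read 2712, 3184, 1713 and 1958 in wild type and 2767, 3909, 2107 and 2180 in DpDf, higher in DpDf in every pair, with a difference of 0.19 (SE 0.23, limma adjusted p = 0.733; blocked by replicate, 0.0806). Its values varied more between replicates than between genotypes. vpp3, of the same naming series, differed by -0.12 (SE 0.065, limma adjusted p = 0.383). cap1, the calcium pump gene that was the remaining P-type ATPase named, differed by 0.049 (SE 0.088, limma adjusted p = 0.830). With the RNA measure as a covariate the sign of all 3 turned, to -0.11 for vpp1, 0.0059 for vpp3 and -0.058 for cap1, none of which passed (limma adjusted p = 0.978 to 0.994).

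Among carriers and potassium channels, 3 of 11 genes passed the filter. pht1, a phosphate transporter gene on the duplicated arm, read 44.7, 51.97, 51.63 and 49.4 in wild type and 74.56, 127.5, 122.4 and 151.9 in DpDf. It rose by 1.22 (SE 0.19, limma adjusted p = 0.00515), and by 1.54 with the RNA measure as a covariate (limma adjusted p = 0.0129). sut1, a sucrose and proton co-transporter gene, differed by -0.12 (SE 0.10), and the potassium channel gene K2 (ZMK2) by -0.30 (SE 0.12, limma adjusted p = 0.223).

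Expansins, which loosen the wall at low pH, had 9 of 11 tested genes with a lower mean in DpDf, where 57.2% of all tested probe sets had one, and a median difference of -0.095. None of them was called in the fit on genotype alone, where 4.03% of all tested probe sets were called higher and 0.843% lower. With the replicate block 1 was higher and 2 lower, where 10.2% of all tested probe sets were called in either direction and 3.35% lower. expB4 read 1797, 2196, 2287 and 2023 in wild type and 1603, 1909, 1504 and 1582 in DpDf, with a difference of -0.33 (SE 0.095, limma adjusted p = 0.0954; blocked by replicate, 0.0310). expa1 differed by -0.18 (SE 0.065, limma adjusted p = 0.179; blocked by replicate, 0.0258). expB7 differed by 0.23 (SE 0.11, limma adjusted p = 0.332; blocked by replicate, 0.0378). No expansin was called with the RNA measure as a covariate.

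Of 3 auxin genes, 0 were called in limma, also with the block, at shares of 4.03% higher and 0.843% lower over all tested probe sets and of 10.2% with the block. abp1, which encodes an auxin-binding protein, read 5293 to 5470 in wild type and 5754 to 6024 in DpDf, without overlap, as 6.52% of tested probe sets were in that direction, and differed by 0.14 (SE 0.038, limma adjusted p = 0.0693). In that list abp4 differed by 0.12 (SE 0.060) and aic1 (aux1) by -0.10 (SE 0.076).

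**Figure D4:**
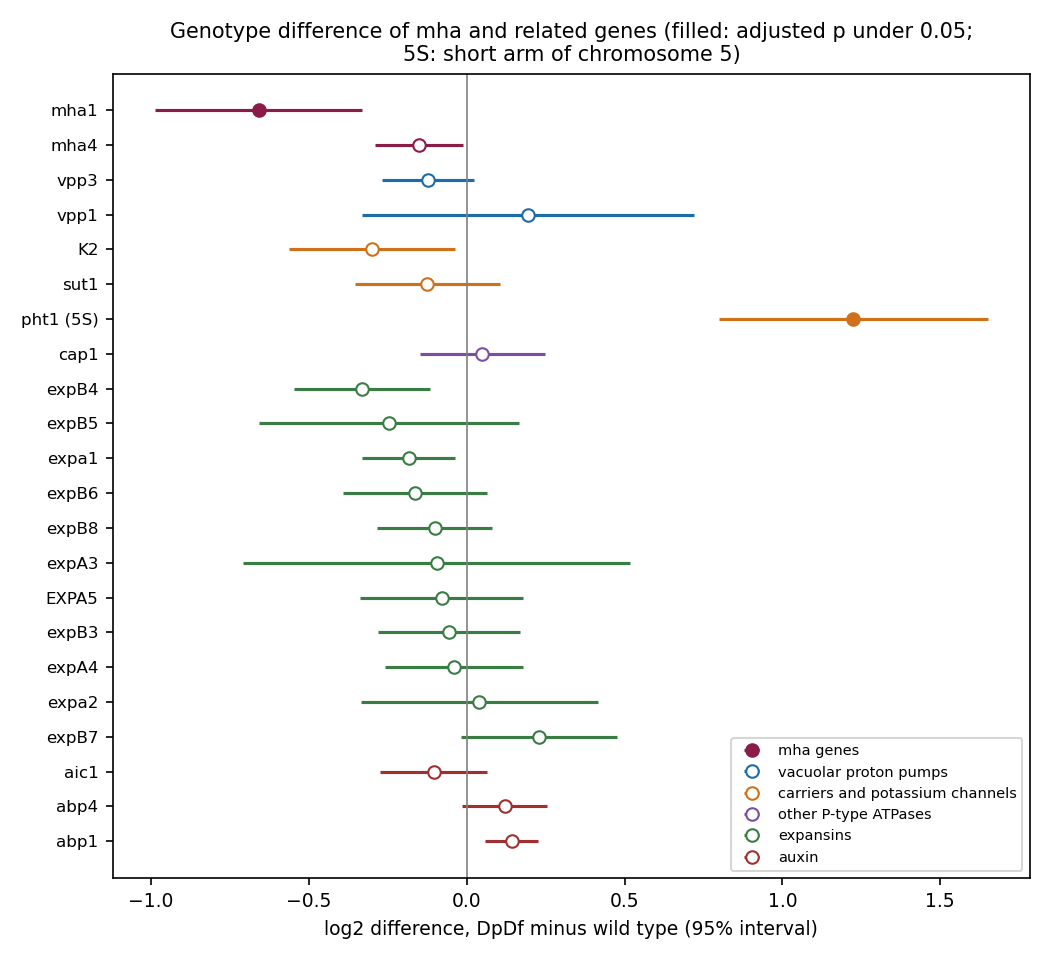
Log2 difference, DpDf minus wild type, with 95% intervals for mha1 (S1 probe set), mha4 and 20 other genes grouped by role; filled points passed the adjusted p threshold of 0.05. mha1 and pht1, the latter on the duplicated short arm (5S), are filled, at -0.66 and 1.22, and the other genes lie between -0.33 and 0.23.

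Among 917 other named genes, those whose log2 values followed mha1 most closely over the 8 pools were LOC542766 (Pearson's r = 0.96), UMPS, sdg113, rs2 and stm1 (r = 0.95 each). None of the 5 was called in limma without the replicate block, and stm1 was with it (adjusted p = 0.0293), with differences from -0.34 for UMPS to -0.15 for rs2. In 24 to 28 of their 28 pool pairs these genes ran opposite to the RNA measure. As they were picked for likeness to mha1, which ran opposite to it in 26, that order follows from the choice. Once each genotype's mean was taken out, the closest were rop6 (r = 0.97), met2 (r = 0.96), rop9 (r = 0.95), pdi3 (r = 0.94) and UMPS (r = 0.94), so UMPS was the gene common to both. For mha4, r with mha1 was 0.71 over the 8 pools and 0.21 after the genotype means were taken out. These values describe 8 pools that share replicate, seed source and RNA quality.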

How the data were processed

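Transcripts were measured on an Affymetrix maize array in 8 pools. The authors deposited a processed linear intensity for each probe set on each array. MAS5 is named in the submitters' processing notes, with neither version nor role. The sources used here give no scaling target, detection call or genome build, and the number of arrays limits the precision. Genes were named from the platform annotation and, by gene number, from RefSeq (Zm-B73-REFERENCE-NAM-5.0), which also gave chromosome and start position. Genes of chromosome 5 that start before a set position were counted as lying on the duplicated arm, without the breakpoint itself.

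After 113 controls were left out, a filter at the 30th percentile of mean log2 values (27.0 linear) was applied, which kept 12335, among them 2 of the 3 mha probe sets. Values were taken to log2 without pseudocount or further normalization and fitted with limma 3.58.1 in R 4.3.3 (lmFit, eBayes with trend; genotype as the only term), with Benjamini-Hochberg adjustment over all tested probe sets; the code was tested on simulated data. Where a gene had several probe sets, the one of highest mean stood for it in the lists. The RNA measure used the 5 of 7 pairs of 3' and 5' maize control readings that were both above the filter value, each of a different transcript. The pairs left out were further readings of actin and gapdh. Each of them was higher in DpDf in some replicates and lower in others.

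Same-numbered pools were drawn from the same set of sibling seedlings, per the labels' growth protocol, so the numbers pair the pools. Their deviations from group means correlated at r = 0.36, 0.51, 0.56 and 0.33 for replicates 1 to 4. Pools of different numbers ran from r = -0.61, for wild-type replicate 2 and DpDf replicate 3, to r = 0.31, for wild-type replicate 3 and DpDf replicate 4. Deviations cancel out within each genotype, so positive values for matched pools force negative ones among the others. The fit on genotype alone was planned, and the replicate block is an alternative, as are seed source, filter, normalization, pseudocount, moderation, RNA measure and pools left out. Members and lists were chosen with earlier results of these data known. Lists were matched by symbol pattern, and 3 actin-depolymerizing factor genes that matched the auxin pattern were left out; among the markers, pdlk1, zpu1 and the mez genes were left out likewise, which left no pollen marker. Named are all mha probe sets, list members past the threshold in either fit or with the smallest p, and the 5 genes most like mha1 by each measure; the other list members given were named after their values were seen.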

Additional observations from a re-analysis of the deposited data

Results flagged for a closer look

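In 16 groups of 4 pools looked at, 2 held a pool far from the others, where chance flags about 1 group in 20. DpDf replicate 3 read 74.4 for the S1 probe set of mha1, against 58.75 to 59.94 in the other DpDf pools; it had the lowest 3' minus 5' value of the DpDf pools (1.72). Wild-type replicate 3 read 9.93 (9.925 before rounding) for the A1 probe set of mha1, against 5.84 to 6.37 in the other wild-type pools, all under the low-value limit of 27.0.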

How the results depend on the processing

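The mha1 difference stayed negative in all 22 alternatives and was under 0.05 in 11. These include the exact permutation, whose p is for mha1 alone and is not adjusted over probe sets. They also include the replicate block without the filter, chosen after seeing the data (limma adjusted p = 0.0218). The mha1 difference did not pass with the RNA measure as a covariate (-0.37), with that covariate and the replicate block, also chosen after seeing the data (-0.39, limma adjusted p = 0.134), within seed source 49647-3self (-0.83) or 49646-1self (-0.49), or by 16 exact sign flips (-0.66, p = 0.125, the smallest possible). Leaving out each pool gave -0.77 to -0.56, with 2 of 8 past the threshold. Without the filter, where the S1 probe set was tested beside all dim ones, its limma adjusted p was 0.0499. The count of mha probe sets called was 1, and it was 0 with the covariate (with or without the block), within either seed source and without 6 of the pools left out in turn, so it ran from 0 to 1. With the replicate block, the proton gradient lists had 4 calls against 1, and the cause was not tested; mha1 and pht1 still passed with the block. mha4 missed the threshold in all 20 alternatives with its direction kept, and the seed source interaction of mha1 missed it in all 13, from 0.17 to 0.51 with pools left out. Over all probe sets 601 were called, against 1253 with the block, 329 with the covariate, 389 without wild-type replicate 4, and 65 and 255 within seed sources 49647-3self and 49646-1self.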
